A study of Homo sapiens with 3 samples.

Results

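The circRNAs described here are those whose host is a protein-coding gene and whose start and end lie under 1000 bases apart on the genome. They were taken from the deposited table as the rows with a coding host transcript (accession prefix NM), a position on chromosomes 1 to 22 or X, and an end minus start under 1000, which gave 14664 of 92509 circRNAs, from 6881 host genes. From each of 3 human cell lines 1 RNA sample, depleted of ribosomal RNA, was read on an Illumina HiSeq. HCC827 derives from a lung adenocarcinoma whose EGFR, the receptor for epidermal growth factor, is mutated, A549 from one whose EGFR is wild type, and BEAS-2B from bronchial epithelium of normal lung. All were grown in DMEM with serum, and the descriptions name no treatment. There were no replicates, so no test was run, and a ratio describes a pair of libraries.

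A circRNA is a closed loop that forms when the splicing machinery joins the end of an exon to the start of the same or an earlier exon, a reaction called back-splicing. The loop has no free end, is therefore spared by enzymes that degrade RNA from its ends, and can outlast the linear mRNA made from the same gene. So short a span on the genome leaves room for 1 exon or a few closely spaced exons, so many of these short circRNAs consist of the same bases as an exon of the host mRNA, apart from the junction that closes the loop.

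The deposited circRNA values are TPM, which divide by length and then by the total of the line. Which program gave them, and how linear RNA of the host was kept apart from the circle are not given in the sources used here. Host mRNA is given in FPKM, which also divide by length, and low mRNA values stand at exactly 1 FPKM, called the floor here, which is not read as absence. Since each line is a bulk sample, a lower value does not tell fewer cells with a circRNA apart from less of it per cell. Of the epithelial markers, EPCAM had 166, 4.23 and 1 FPKM and CDH1 had 198, 18.2 and 1 FPKM in HCC827, A549 and BEAS-2B, so that BEAS-2B, labelled as normal lung epithelium, stood at the floor for both, while KRT8 was at 91.6, 1419 and 282 FPKM. The mesenchymal marker VIM was at 1.47, 173 and 411 FPKM and COL1A1 at 5.32, 5.21 and 60.6 FPKM. PDGFRB was at 12.5 FPKM in BEAS-2B and at the floor in the others, and COL1A2 was at the floor in every line. The lung lineage factor NKX2-1 was at 9.92 FPKM in HCC827 and at the floor in the others. Of the alveolar type 2 markers, NAPSA was at 34.5, 1.14 and 1 FPKM, while the surfactant genes SFTPB and SFTPC were at the floor in every line. The leukocyte marker PTPRC was at the floor in every line too.

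The HCC827 library stood apart in the coarseness of its values, and this bears on every result that uses it. At some spans, most members took TPM values that were whole multiples of a common step, within 0.02 of a step. Among spans of 80 to 200 bases with enough values, at least 70% of values were whole at 19 of 79 spans in A549 and 26 of 74 in BEAS-2B, and the median over these spans was 60.0% in A549 and 63.1% in BEAS-2B. At a span of 95 bases, 8 of 11 values above 1 TPM in A549 were whole multiples of 2.34 TPM and 7 of 8 in BEAS-2B were whole multiples of 2.18 TPM. In HCC827, the only 2 members of that span above 0 both had 1274 TPM. The circRNA of the centrosome protein gene CCDC14 (hsa_circ_0067064), for example, had 1274 TPM in HCC827, 612 TPM in A549 and 590 TPM in BEAS-2B, which is 1 step in HCC827, 261 steps in A549 and 270 steps in BEAS-2B. Steps were sought among these same values divided by whole numbers, and in HCC827 the repeated value itself was taken as the step. Whole multiples are therefore no independent result, and the share that values without a step would give is not stated here. At 119 bases, the circRNAs of LIN7C and CTNND1 both had 1629 TPM in HCC827, against 576 and 150.2 TPM in A549 and 602 and 92.1 TPM in BEAS-2B, where no clear step was found at that span (43.8% of values whole in each).

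At a span of 126 bases, 3 of the 4 HCC827 values were 1 or 2 times 1629.85 TPM, the value that 2 of them share. The remaining value, of a DCBLD2 circRNA at 0 in A549 and BEAS-2B, was 1153 TPM, which is 0.71 of a step and so not a whole multiple. The circRNA of COPS6, a subunit of the COP9 signalosome, had 1630 TPM in HCC827, 1545 TPM in A549 and 1618 TPM in BEAS-2B. That of TGOLN2 had the same 1630 TPM in HCC827, against 157 TPM in A549 and 118 TPM in BEAS-2B, and that of the lipid kinase gene PIK3C2A had 3260 TPM in HCC827, against 332 TPM in A549 and 399.9 TPM in BEAS-2B. No clear step was found at 126 bases in A549 (57.9% of values whole) or BEAS-2B (52.9%). The step is the size that 1 counted read would have if whole reads were counted, but the files give no counts and this was not tested. Of the 42 members under 200 bases above 0 in HCC827, 35 lay between 877 and 1822 TPM, 6 above 2000 TPM, and 1 at 0.105 TPM (a circRNA of the ribosomal protein gene RPL7). A member of 95 bases at the 1274 TPM of HCC827 has over 5 times the BEAS-2B value whenever that value is below 255 TPM. If a step were 1 read, a 0 in HCC827 would allow a level of up to 3 steps, 3823 TPM at 95 bases and 4890 TPM at 126 bases. At the 4 spans with a repeated HCC827 value, all 56 members that were at 0 in HCC827 and above 0 in another line had values under 3 steps in both other lines. Members under 100 bases reached at most 1149 TPM in A549 and 3570 TPM in BEAS-2B, and those of 100 to 150 bases at most 4681 and 3551 TPM. All of these lie under 3 steps at the 4 spans, so this count was settled in advance and says nothing about the zeros.

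Short circRNAs of coding genes were detected in far fewer cases than longer ones in each of the lines, and where they were detected their TPM was higher. In HCC827, 311 members (2.12%) were above 0, against 3958 (27.0%) in A549 and 3878 (26.4%) in BEAS-2B. Among coding-host circRNAs of 1 to 10 kb these shares were 6.66%, 48.1% and 47.0%, and over all circRNAs 5.34%, 47.5% and 46.2%. Members above 0 had a median of 506 TPM in HCC827, 11.4 TPM in A549 and 12.5 TPM in BEAS-2B, against 102, 5.89 and 6.92 TPM for the 1 to 10 kb class. The members made up 15.9% of all rows and held 23.1% of the summed TPM in HCC827, 25.8% in A549 and 24.4% in BEAS-2B.

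The median span of the members was 208 bases, with quartiles at 126 and 513 bases, and 7204 lay on the plus and 7460 on the minus strand. The share above 0 grew with span in A549, with 13.8% below 100 bases, 19.5% at 150 to 200, 36.8% at 300 to 500 and 39.8% at 700 to 1000 bases, and BEAS-2B followed closely with 11.6%, 19.6%, 36.5% and 39.9%. In HCC827 the shares were 0.480%, 0.767%, 2.99% and 4.48% in the same bins. The median of the values above 0 was highest at 100 to 150 bases, with 1650 TPM in HCC827, 25.4 TPM in A549 and 28.4 TPM in BEAS-2B. Below 100 bases it was 1274, 17.6 and 16.4 TPM, and at 700 to 1000 bases 243, 7.95 and 8.85 TPM. Across members above 0, Spearman's rho of span and TPM was -0.48 in HCC827 (n = 311), -0.23 in A549 (n = 3958) and -0.22 in BEAS-2B (n = 3878), as a description, since these circRNAs share a library and TPM divide by length. The size of the step in HCC827 also differed with span, and its part in this relation was not tested.

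**Figure D1:**
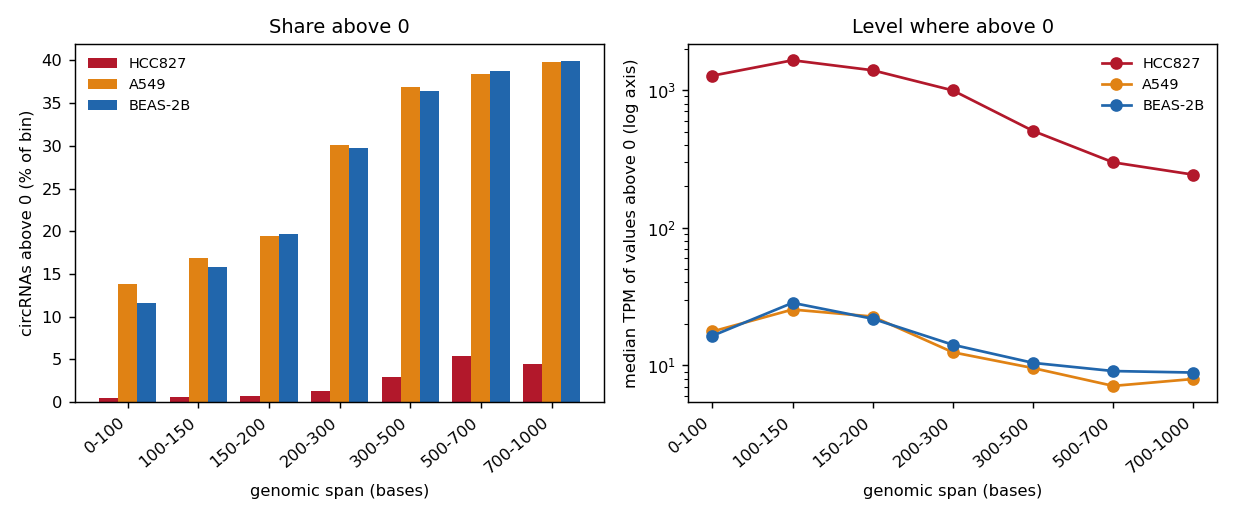
Left, percentage of circRNAs under 1 kb with a TPM above 0 by genomic span in bases, and right, median TPM of those above 0 on a log axis, for HCC827, A549 and BEAS-2B. A549 and BEAS-2B run together, at 39.8% and 39.9% for 700 to 1000 bases, while HCC827 has few circRNAs above 0 and medians of 243 to 1650 TPM.

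The rows closest to the limit of the class did not stand out. Of those just inside it, the circRNA of the ubiquitin ligase gene RNF10 (999 bases) had 0, 7.93 and 7.19 TPM in HCC827, A549 and BEAS-2B, and that of the gamma-tubulin gene TUBG1 (999 bases) was at 0 in every line. Just outside it, the circRNA of ZNF92 (1000 bases) had 0, 0.887 and 0 TPM and that of ACACB, an acetyl-CoA carboxylase gene, had 0, 0 and 0.262 TPM. At the other end, 11 members spanned under 20 bases, down to a span of 1 base for a circRNA of the troponin gene TNNT2, and 0 of these 11 were above 0 in any line. Chromosome 19 was richest in members relative to its coding-host circRNAs (26.2%, 1198 of 4573), and chromosome 4 poorest (13.2%, 417 of 3155).

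A549 and BEAS-2B had mostly the same members above 0, and HCC827 had few, most of them shared with another line. Of the 14664 members, 9955 were at 0 in every line and 3079 were above 0 in A549 and BEAS-2B only. A further 702 were above 0 in A549 only, 617 in BEAS-2B only, 167 in all 3 lines and 119 in HCC827 only. The 3246 members above 0 in both A549 and BEAS-2B were 82.0% of those of A549 and 83.7% of those of BEAS-2B. The 119 HCC827-only members were 38.3% of the members above 0 there, against 27.6% in the 1 to 10 kb class, 17.1% in the 10 to 50 kb class and 6.73% in the class over 50 kb. Their median was 402 TPM in HCC827, and the mRNA of their hosts was at a median of 21.7, 18.7 and 20.7 FPKM in HCC827, A549 and BEAS-2B, so that the hosts were at like levels in the lines in which the circRNA was listed at 0.

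The highest of the HCC827 members listed at 0 in BEAS-2B came from genes of varied function. PTPRF, a receptor tyrosine phosphatase gene, had a circRNA (hsa_circ_0012091) at 1628 TPM in HCC827 and at 0 in A549 and BEAS-2B, with host mRNA at 39.2, 13.5 and 37.5 FPKM. That of TMC5, a gene of the transmembrane channel-like family, had 1558, 46.8 and 0 TPM in HCC827, A549 and BEAS-2B, and here the host mRNA followed, with 23.3 and 2.62 FPKM and the floor in BEAS-2B. The circRNA of DENND1B, an activator of Rab GTPases, had 1485 TPM in HCC827 and that of ZNF430 had 1477 TPM, both listed at 0 in A549 and BEAS-2B, while the host mRNA was low throughout, at 2.25, 2.74 and 2.12 FPKM for DENND1B and 1.17, 1 and 2.52 FPKM for ZNF430. For ASPH, the gene of aspartate beta-hydroxylase, the member at 1435 TPM in HCC827 was listed at 0 in the other lines although its host mRNA was at 499, 118 and 15.1 FPKM. The 99-base circRNA of ZNF430 stood at the value that another circRNA of 99 bases, of CPVL, also had.

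Several of the most abundant members of A549 and BEAS-2B were listed at 0 in HCC827. Of 51 members above 500 TPM in both A549 and BEAS-2B, 32 (62.7%) were at 0 in HCC827, and this was so for 24 of 31 below 200 bases, 5 of 9 at 200 to 500 bases and 3 of 11 at 500 to 1000 bases, against 22 of 62 among longer coding-host circRNAs. The histone H4 gene HIST1H4C had a circRNA (hsa_circ_0003009) at 0, 3711 and 2906 TPM in HCC827, A549 and BEAS-2B. The linker histone gene HIST1H1C had 1 at 0, 1856 and 2228 TPM. ANXA2, a calcium-dependent phospholipid-binding protein gene, had 1 at 0, 4681 and 1543 TPM, and HNRNPR, an RNA-binding protein gene, 1 at 0, 2600.0 and 3497 TPM. B2M, the light chain of HLA class I, had 1 at 0, 826 and 3570.0 TPM. The host mRNAs were present in HCC827, at 264 FPKM for HIST1H4C, 254 FPKM for HIST1H1C, 637 FPKM for ANXA2, 29.4 FPKM for HNRNPR and 205 FPKM for B2M. For HIST1H4C (117 bases) and ANXA2 (123 bases) both other values lie below the 4888 and 4890 TPM that 3 steps make at the nearby spans of 119 and 126 bases. The same holds for every A549 and BEAS-2B value at 100 to 150 bases, so it does not set these circRNAs apart. The HCC827 step at the spans of these 5 circRNAs was not determined, and its part in their zeros was not tested.

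**Figure D2:**
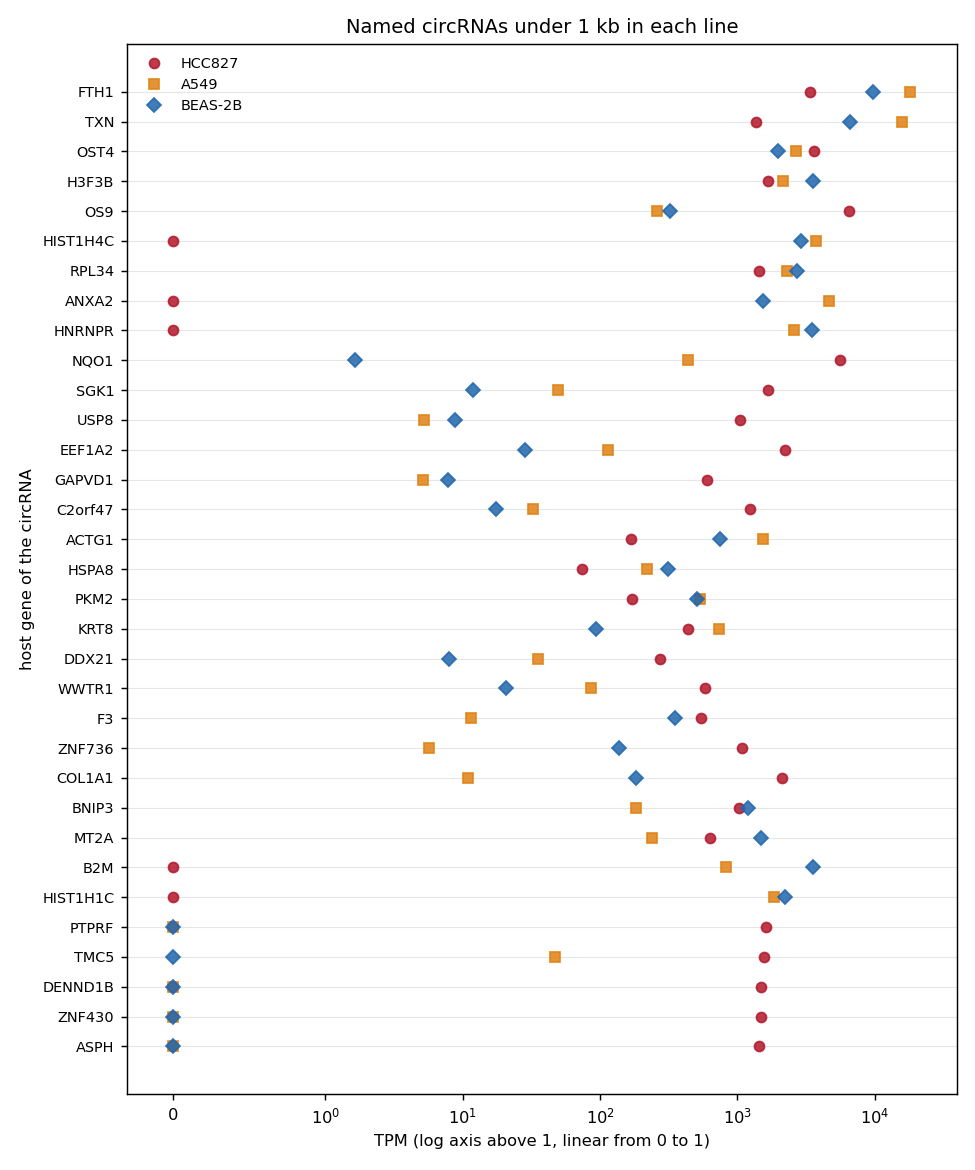
TPM of the named circRNAs under 1 kb in HCC827, A549 and BEAS-2B, with 1 point per library and the host gene on the vertical axis, on a scale that is linear between 0 and 1 and logarithmic above. The circRNAs of FTH1 and TXN reach 17956 and 15717 TPM in A549, while 5 abundant ones, among them HIST1H4C and B2M, lie at 0 in HCC827.

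Most of the most abundant members came from genes with abundant mRNA. The circRNA of the ferritin heavy chain gene FTH1 (hsa_circ_0022417, chr11:61732458-61732987 as the table gives it, build hg19 per the submitters' notes), which stores iron, had 3375, 17956 and 9647 TPM in HCC827, A549 and BEAS-2B, and its mRNA 474, 1128 and 611 FPKM. That of thioredoxin, TXN (hsa_circ_0087949, chr9:113013099-113013742), had 1357, 15717 and 6641 TPM with mRNA at 282, 963 and 417 FPKM. In both genes, circRNA and mRNA were highest in A549 and lowest in HCC827. The 138-base circRNA of OST4, a small subunit of oligosaccharyltransferase, had 3625, 2692 and 1969 TPM, and the 115-base circRNA of the H3.3 histone gene H3F3B had 1658, 2142 and 3551 TPM. The circRNA of the ribosomal protein gene RPL34 had 1434, 2296 and 2731 TPM. That of OS9, a lectin of the degradation pathway of the endoplasmic reticulum, was by far highest in HCC827, with 6480.3 TPM against 259 TPM in A549 and 323 TPM in BEAS-2B. The 102-base circRNA of the quinone reductase gene NQO1, a target of the oxidative stress factor NRF2, had 5570.4, 437 and 1.63 TPM, while its mRNA was highest in A549, at 69.6, 435 and 40.8 FPKM.

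A circRNA was counted as detected above 5 TPM in each line, and 148 members from 144 host genes were detected, of 1988 among all circRNAs. They spanned a median of 536 bases and so lay toward the long end of the class. Their median level was 627 TPM in HCC827, 96.6 TPM in A549 and 95.1 TPM in BEAS-2B. Ratios were formed for these 148, a ratio over 5 counted as higher and a ratio under 0.2 as lower, and the comparisons of HCC827 and of A549 share the BEAS-2B library.

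In HCC827 against BEAS-2B, 78 of the 148 detected members (52.7%) were over 5-fold higher and 0 over 5-fold lower, where 31.1% of all 1988 detected circRNAs were higher and 0.755% lower. The median log2 ratio was 2.70, against 1.66 for the 1 to 10 kb class and 1.48 for all detected circRNAs. The median log2 ratio was 3.46 for the 22 members below 200 bases, 2.77 for the 43 of 200 to 500 bases and 2.16 for the 83 of 500 to 1000 bases. The detection rule bears on these values. In HCC827 the 5th percentile of members above 0 was 1031 TPM below 100 bases and 63.4 TPM at 700 to 1000 bases. Over all members it was 33.3 TPM, against 0.44 TPM in A549 and 0.506 TPM in BEAS-2B. Members at 0 in HCC827 form no ratio, among them 32 of the 51 above 500 TPM in both other lines. The lack of lower members and the order by span are therefore no independent results. Dividing each line by its median-of-ratios size factor left 32 of the 148 members higher and 10 lower, with a median log2 ratio of 1.20, against 206 higher and 134 lower of all 1988 and a median of -0.016. The factors were taken from these 1988, so the median of the 1988 lies near 0 by construction. The HCC827 step was sought at spans under 200 bases and could be determined at 4 spans of 95 to 126 bases only. Equal HCC827 values also occurred at longer, unlike spans. Members of GAPVD1 (468 bases) and NFKB2 (572 bases) both had 597 TPM, and those of RPL15 (714 bases) and TACC3 (450 bases) both had 689 TPM. The part of the step and of these equal values in the ratios was not tested.

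Among detected members the highest ratio was that of SGK1, a kinase gene that glucocorticoids and serum switch on, whose circRNA had 1662, 49.6 and 11.8 TPM in HCC827, A549 and BEAS-2B, 141-fold higher in HCC827 than in BEAS-2B. The mRNA of SGK1 was at 30.8, 8.93 and 2.82 FPKM and followed the same order. For the elongation factor gene EEF1A2, circRNA and mRNA also moved together, with 2206, 115 and 28.2 TPM (78.1-fold) and 78.2, 20.7 and 2.95 FPKM. For USP8, a deubiquitinase of endosomal sorting, the circRNA had 1049, 5.19 and 8.86 TPM, 118-fold higher, although its mRNA was lowest in HCC827 at 5.82, 11.5 and 19.4 FPKM. That of GAPVD1, which activates the endosomal GTPase RAB5, had 597, 5.11 and 7.82 TPM (76.4-fold), and the NFKB2 member had the same HCC827 value. The mRNA of GAPVD1 was nearly equal in HCC827 and BEAS-2B at 12.2 and 11.7 FPKM, with 5.27 FPKM in A549. The circRNA of C2orf47 had 1240.4, 32.4 and 17.6 TPM (70.6-fold) with mRNA at 6.26, 4.19 and 3.80 FPKM. The circRNA of OS9 was 20.05-fold higher than in BEAS-2B, and its mRNA had 897, 26.8 and 44.3 FPKM, a difference of 4.31 on the log2(FPKM + 1) scale.

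The ratio to BEAS-2B was over 1 for 133 of the 148, and those named here for the lowest ratios were circRNAs of ACTG1, FTH1, HSPA8, PKM2 and TXN. For TXN the ratio to BEAS-2B was 0.204 and for FTH1 0.35, from the values above. The 863-base circRNA of the cytoplasmic actin gene ACTG1 had 167, 1524 and 741 TPM in HCC827, A549 and BEAS-2B (0.225), with mRNA at 2788, 5448 and 3056 FPKM. The 728-base circRNA of pyruvate kinase, listed as PKM2, had 171, 535 and 511 TPM (0.335), with mRNA at 423, 613 and 509 FPKM. A 428-base circRNA of the chaperone gene HSPA8 had 73.3, 219 and 312 TPM (0.235) while its mRNA was higher in HCC827, at 55.6, 16.8 and 14.6 FPKM. Another HSPA8 member, of 579 bases, had 654, 230.0 and 445 TPM (1.47), so that without size factors these members of the same gene differed in direction. With size factors the ratios to BEAS-2B were 0.0831 for the 428-base and 0.521 for the 579-base member, so that each was lower in HCC827. The detected HSPA8 member of 630 bases had 105.3, 64.3 and 109.8 TPM in HCC827, A549 and BEAS-2B.

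A549 and BEAS-2B were close to each other over the same 148 members. In A549 against BEAS-2B, 1 member was over 5-fold higher and 5 were over 5-fold lower, where 1.16% of all detected circRNAs were higher and 1.46% lower, and the median log2 ratio was -0.067 (-0.15 for all). Past a 2-fold difference there were 16 higher and 14 lower members, against 8.05% and 12.3% of all. The circRNA of keratin 8, KRT8, was the 1 that was higher, with 737 TPM in A549 against 92.8 TPM in BEAS-2B (7.95-fold), 435 TPM in HCC827, and mRNA at 1419 and 282 FPKM in A549 and BEAS-2B. DDX21, a nucleolar RNA helicase gene, followed with 35.3 and 8.01 TPM (4.41-fold), then SGK1 with 49.6 and 11.8 TPM (4.202-fold) and WWTR1, the gene of the Hippo pathway effector TAZ, with 85.6 and 20.7 TPM (4.14-fold).

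The 5 lower members in A549 came from genes whose mRNA was lower too. The circRNA of tissue factor, F3, which starts blood coagulation, had 11.5 TPM in A549 against 351 TPM in BEAS-2B (0.0326), and 541 TPM in HCC827, and its mRNA was at 1.99 and 51.2 FPKM in A549 and BEAS-2B. That of collagen type I, COL1A1, had 10.95 TPM in A549 against 182 TPM in BEAS-2B (0.0603), and its mRNA 5.21 against 60.6 FPKM. For BNIP3, a mitophagy receptor induced by low oxygen, the circRNA had 181 against 1191 TPM (0.152) and the mRNA 32.0 against 163 FPKM. For the metallothionein gene MT2A, which binds zinc and other metals, the circRNA had 241 against 1482 TPM (0.163) and the mRNA 1.04 against 17.6 FPKM. For the zinc finger gene ZNF736 the circRNA had 5.73 against 138 TPM (0.0414), with its mRNA at the floor in A549 and at 5.16 FPKM in BEAS-2B.

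**Figure D3:**
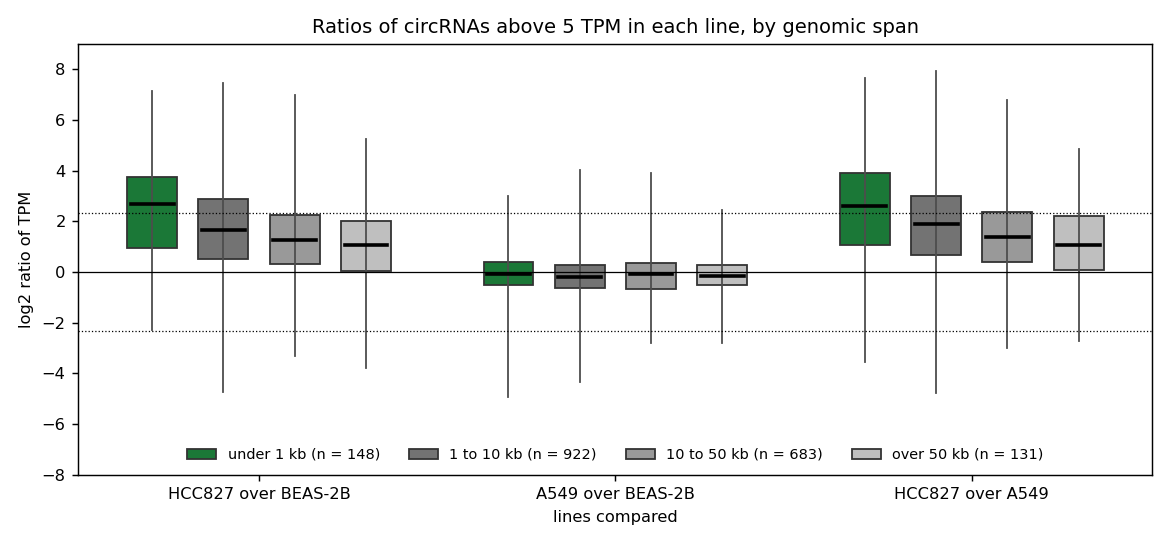
Log2 ratios of TPM of detected coding-host circRNAs by genomic span for HCC827 over BEAS-2B, A549 over BEAS-2B and HCC827 over A549, with boxes from the first to the third quartile, thick lines at the median, vertical lines from the lowest to the highest ratio and dotted lines at a ratio of 5 and 0.2. The circRNAs under 1 kb have median log2 ratios of 2.70, -0.067 and 2.61, and those of longer spans are nearer to 0 in both comparisons of HCC827.

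Leaving HCC827 out of the detection rule widened the comparison of A549 with BEAS-2B to 2194 members above 5 TPM in both lines, of which 40 were over 5-fold higher and 43 over 5-fold lower. Over all 17133 such circRNAs, 1.03% were higher and 0.934% lower, and the members' shares were 1.82% and 1.96%. Past a 2-fold difference there were 280 higher and 356 lower members (12.8% and 16.2%), against 8.97% and 13.6% of all. The most changed of these members are named here after their values were seen. The circRNA of the aldo-keto reductase gene AKR1B10 had 3724 TPM in A549 against 12.3 TPM in BEAS-2B (302-fold), with mRNA at 1981 against 10.7 FPKM. Circular RNAs of ALDH1A1, which oxidizes retinal, had 3756 against 31.3 TPM (120.2-fold) with mRNA at 2397 against 19.2 FPKM. The vitamin D hydroxylase gene CYP24A1 had 2 such members with a common start, at 1775 against 13.9 TPM and 708 against 6.38 TPM, with mRNA at 246 against 1.38 FPKM. In these genes the values of circRNA and mRNA were both more than 100 times as high in A549.

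Further members higher in A549 were those of RAP1GAP (164 against 6.56 TPM), the drug transporter gene ABCC3 (427 against 22.4 TPM) and the co-chaperone gene DNAJC12 (188 against 9.68 TPM). Lower in A549 was that of transgelin, TAGLN, an actin-binding protein of contractile cells, at 12.1 against 2098 TPM, with mRNA at 2.61 against 297 FPKM. That of GAS6, a ligand of the AXL receptor kinase, had 10.5 against 241 TPM, and that of the integrin beta 3 gene ITGB3 had 19.7 against 231 TPM. The circRNA of ZEB2, a repressor of epithelial genes, had 17.0 against 191 TPM. In GAS6, ITGB3 and ZEB2 the mRNA was at the floor in A549 and at 15.8, 12.01 and 8.94 FPKM in BEAS-2B. The circRNA of TAGLN and those of AKR1B10, ALDH1A1 and CYP24A1 were listed at 0 in HCC827.

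In HCC827 against A549, 82 of the 148 detected members were over 5-fold higher and 3 over 5-fold lower, where 34.5% of all detected circRNAs were higher and 0.805% lower, and the median log2 ratio was 2.61 (1.67 for all). With size factors, 35 of the 148 were higher and 11 lower with a median log2 ratio of 0.97, against 198 higher and 140 lower of all 1988 and a median of 0.029. The factors were taken from these 1988, so the median of the 1988 lies near 0 by construction. The limit that the detection rule sets on HCC827 ratios holds here too. The highest ratios were those of USP8 (202-fold), COL1A1 (193-fold, 2112 against 10.95 TPM), ZNF736 (187-fold, 1074 against 5.73 TPM) and GAPVD1 (117-fold). The circRNA of PRIC285, whose mRNA is listed as HELZ2, a coactivator of nuclear receptors, had 1356 against 17.1 TPM (79.5-fold) with mRNA at 4.55 against 1.59 FPKM. Lower past 5-fold in HCC827 were TXN (0.0864), ACTG1 (0.109) and FTH1 (0.188). Thymosin beta 4, TMSB4X, which binds actin monomers, followed with 164 against 539 TPM (0.304), and PKM2 with 0.320.

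Grouped by function, members of genes for translation and cytoskeleton had shares above 0 over that of the whole class in HCC827 and under it in A549 and BEAS-2B. This was not particular to them, since glycolysis, proteasome, keratin, and NRF2 and redox genes showed the same. So did all members with a host over 100 FPKM, with 11.3% in HCC827, 19.0% in A549 and 20.1% in BEAS-2B. Of 243 members from 71 ribosomal protein genes, 21 (8.64%) were above 0 in HCC827, 41 (16.9%) in A549 and 42 (17.3%) in BEAS-2B, against 2.12%, 27.0% and 26.4% of all members. Of these, 10 were detected in all lines, 2 of them over 5-fold higher in HCC827 than in BEAS-2B, where 52.7% of detected members and 31.1% of all detected circRNAs were. The median log2 ratio of the 10 was 0.68 in HCC827 and -0.22 in A549, both against BEAS-2B, and that of HCC827 turned to -0.82 with size factors. The circRNA of RPS3A had nearly equal values of 874, 816 and 935 TPM in HCC827, A549 and BEAS-2B, while that of RPS28 had 3199.9, 693 and 875 TPM. That of RPL8 had 1209, 392 and 184 TPM with mRNA at 18.1, 22.98 and 72.8 FPKM, an opposite order. Ribosomal protein genes have many processed copies in the genome, so reads of their exons can be shared between copies, and these values are uncertain for that reason.

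Of 153 members from 40 translation factor genes, 14 (9.15%) were above 0 in HCC827, 22 (14.4%) in A549 and 22 (14.4%) in BEAS-2B, and 4 were detected in all lines. For the RNA helicase gene EIF4A2 the circRNA had 1378, 140.2 and 212 TPM in HCC827, A549 and BEAS-2B, 6.49-fold higher in HCC827 than in BEAS-2B, with mRNA at 54.3, 33.9 and 36.5 FPKM. A circRNA of the initiation factor gene EIF3C had 227, 50.1 and 82.2 TPM, values that a second EIF3C entry shares exactly. The elongation factor gene EEF1A1 had 13 members, of which 6 were above 0 in HCC827 and 2 each in A549 and BEAS-2B, with sums of 1608, 1100.1 and 1324 TPM, and no member of it was above 0 in all lines. Its mRNA was at 742, 852 and 1032 FPKM.

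Of 73 members from 15 genes of glycolysis, 6 (8.22%) were above 0 in HCC827, 10 (13.7%) in A549 and 11 (15.1%) in BEAS-2B. The 972-base circRNA of enolase 1, ENO1, had 2344, 776 and 1000.4 TPM, and the 707-base circRNA of GAPDH had 2073, 426 and 1080.5 TPM. Of 17 members of GAPDH, 2 were above 0 in any line, and the 707-base one held 83.8% of the summed TPM in HCC827 and all of it in A549 and BEAS-2B. The 106-base circRNA of the phosphofructokinase gene PFKM had 0, 315 and 362 TPM.

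Of 105 members from 22 genes of actin and microtubules, 7 (6.67%) were above 0 in HCC827, and 13 (12.4%) in A549 and in BEAS-2B. The circRNA of ACTB had 1994, 247 and 516 TPM in HCC827, A549 and BEAS-2B, opposite in order to that of the paralogous gene ACTG1, and the coding parts of these actin genes are so alike that reads can be shared between them. Filamin A, FLNA, which crosslinks actin, was the host with most members, 34. Of these, 3 were above 0 in each line but no member was above 0 in all lines. In HCC827 the highest FLNA member was hsa_circ_0091877 at 752 TPM, listed at 0 in A549 and near 0 in BEAS-2B, whereas in A549 and BEAS-2B the highest was hsa_circ_0091978 at 192 and 358 TPM, listed at 0 in HCC827. The mRNA of FLNA was at 99.3, 61.6 and 86.9 FPKM. The perlecan gene HSPG2 had 24 members, 3 of them above 0 in any line and none over 5 TPM, and the thrombospondin gene THBS1 had 22, 2 of them above 0, the higher at 2.31 TPM in A549 and 32.4 TPM in BEAS-2B.

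Of 19 members from 16 histone genes, 3 (15.8%) were above 0 in HCC827, 15 (78.9%) in A549 and 14 (73.7%) in BEAS-2B, the highest shares among the 16 gene lists in each line. Most replication-dependent histone genes have a single exon and no intron. For the linker histone gene HIST1H1B the circRNA had 0, 354 and 1984 TPM in HCC827, A549 and BEAS-2B, with mRNA at 324, 111 and 765 FPKM, and that of HIST1H2AC had 164, 291 and 283 TPM, with mRNA at 175, 338 and 345 FPKM. The histone members summed to 1949.8 TPM in HCC827, 11248 TPM in A549 and 13282 TPM in BEAS-2B.

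Of 226 members from 152 zinc finger genes, 6 (2.65%) were above 0 in HCC827, 94 (41.6%) in A549 and 104 (46.0%) in BEAS-2B. In A549 against BEAS-2B, 58 of these were above 5 TPM in both lines, with 4 over 2-fold higher, 15 over 2-fold lower and a median log2 ratio of -0.24, against 8.97% higher, 13.6% lower and a median of -0.15 for all circRNAs. Of 55 keratin members, 3 were above 0 in HCC827, 12 in A549 and 9 in BEAS-2B, and all 4 that were above 5 TPM in A549 and BEAS-2B were over 5-fold higher in A549, with a median log2 ratio of 3.04, where 1.82% of members and 1.03% of all circRNAs in this comparison were. Of 47 members from NRF2 and redox genes, 2 were above 0 in HCC827, 8 in A549 and 7 in BEAS-2B. Of the 4 above 5 TPM in A549 and BEAS-2B, 3 were over 2-fold higher in A549 and 0 over 2-fold lower, where 12.8% and 16.2% of members and 8.97% and 13.6% of all circRNAs were. Members of the annexin, S100 and ferritin genes summed to 4859 TPM in HCC827, 25807 TPM in A549 and 11908 TPM in BEAS-2B, most of it from FTH1.

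Of 116 members from 21 extracellular matrix genes, 2 were above 0 in HCC827, 12 in A549 and 11 in BEAS-2B. Both detected ones were over 5-fold higher in HCC827 than in BEAS-2B, as were 52.7% of detected members and 31.1% of all detected circRNAs. The circRNA of COL1A1 had 2112 TPM in HCC827 against 182 TPM in BEAS-2B (11.6-fold) although its mRNA was at 5.32 against 60.6 FPKM, and that of the laminin gene LAMA3 had 377, 5.38 and 11.8 TPM in HCC827, A549 and BEAS-2B, with mRNA at 23.2, 4.51 and 4.67 FPKM. Of 70 members from 33 chaperone genes, 7 (10.0%) were above 0 in HCC827, 21 (30.0%) in A549 and 23 (32.9%) in BEAS-2B. The circRNA of the mitochondrial co-chaperone gene HSPE1 had 1148, 1231 and 444 TPM with mRNA at 98.6, 168 and 50.1 FPKM, and that of HSP90AB1 had nearly equal values of 321, 296 and 301 TPM. For the proteasome ATPase gene PSMC6 the circRNA had 1405, 102 and 113 TPM, 12.5-fold higher in HCC827 than in BEAS-2B, while its mRNA was at 20.4, 36.2 and 34.3 FPKM. A circRNA of DCLRE1B had the same HCC827 value. That of the splicing factor gene SRSF9 had 215, 177 and 173 TPM.

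Of 109 members from 53 genes of the respiratory chain and ATP synthase, 1 was above 0 in HCC827, 19 in A549 and 23 in BEAS-2B, and 0 were detected in all lines. Of 42 members from 17 genes of the EGFR pathway, 0 were above 0 in HCC827, 8 in A549 and 6 in BEAS-2B. Of the 5 above 5 TPM in A549 and BEAS-2B none was over 2-fold higher and 1 over 2-fold lower in A549, where 8.97% and 13.6% of all circRNAs were. Of 84 members from 24 hosts of much studied circRNAs, 1 was above 0 in HCC827, 12 in A549 and 13 in BEAS-2B.

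The mRNA level of the host went with the level of its circRNA in A549 and BEAS-2B, and hardly so in HCC827. Host mRNA was matched for 14607 members and for all 148 detected ones. Across members above 0 with a host above the floor, Spearman's rho of TPM and FPKM was -0.03 in HCC827 (n = 295), 0.39 in A549 (n = 3452) and 0.40 in BEAS-2B (n = 3469), as descriptions over circRNAs that share a library. With the host at the floor, 1 to 10, 10 to 100 and over 100 FPKM, the median level was 2.49, 9.41, 28.0 and 146 TPM in A549 and 2.56, 9.49, 29.7 and 144 TPM in BEAS-2B, while it was 478, 392, 509 and 522 TPM in HCC827. The share above 0 showed the reverse contrast, with 0.743%, 1.04%, 3.32% and 11.3% in HCC827 across the same bins, against 25.2%, 29.0%, 25.4% and 19.0% in A549 and 20.4%, 30.1%, 24.99% and 20.1% in BEAS-2B. In HCC827 a more abundant host thus went mainly with a larger share above 0, and in the other lines with higher levels. The coarse HCC827 values enter this contrast. Below 200 bases the HCC827 medians were 1073, 1452, 1629 and 1273 TPM across the bins (n = 1, 12, 25 and 4), and 35 of those 42 members lay between 877 and 1822 TPM. The part of this coarseness in the contrast between lines was not tested. Among members of 500 to 1000 bases the HCC827 median did differ, with 224, 243, 259 and 505 TPM across the bins, and rho there was 0.05 (n = 176).

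**Figure D4:**
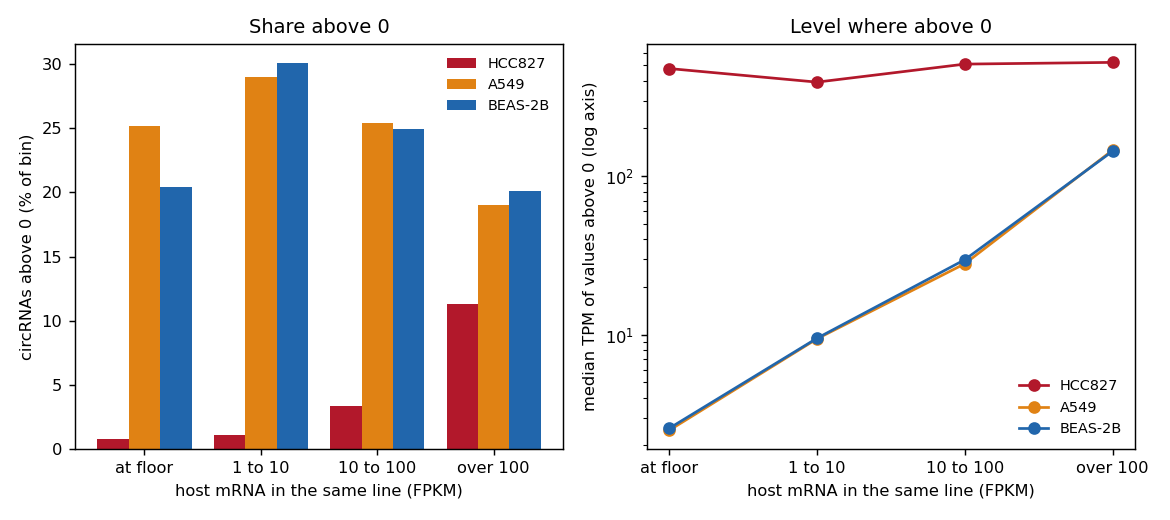
Left, percentage of circRNAs under 1 kb above 0, and right, their median TPM on a log axis, by the FPKM of the host mRNA in the same line, for HCC827, A549 and BEAS-2B. The median rises to 146 and 144 TPM over 100 FPKM in A549 and BEAS-2B, where their lines overlie, and in HCC827 the share above 0 rises to 11.3% instead.

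Differences between lines in the host mRNA went with differences in the circRNA for A549 and far less for HCC827. For A549 against BEAS-2B, Spearman's rho of the circRNA's log2 ratio and the host's log2(FPKM + 1) difference was 0.74 over 144 detected members and 0.61 over the 2135 members above 5 TPM in both lines. For HCC827 it was 0.13 against BEAS-2B and 0.32 against A549, over 145 members each. The part of the coarse HCC827 values in these lower correlations was not tested. The FPKM + 1 scale understates differences of low hosts. Of all mRNAs above the floor in a line of the pair, 12.9% were over 2-fold higher and 16.6% over 2-fold lower in HCC827 than in BEAS-2B, and 10.5% and 15.3% in A549 than in BEAS-2B. Of the 76 members over 5-fold higher in HCC827 than in BEAS-2B with a host above the floor, the host mRNA was over 2-fold higher for 12, within 2-fold for 55 and over 2-fold lower for 9, among them COL1A1, RPL8 and USP8. Of the 37 such members higher in A549 under the wider rule, the host was higher for 22, within 2-fold for 13 and lower for 2 (CD151 and KRT7), and of the 43 lower ones the host was lower for 34, within 2-fold for 9 and higher for 0.

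Among the members farthest from their host in HCC827 were those of USP8 and of NUP205, a nuclear pore protein gene, whose circRNA had 841, 33.6 and 20.4 TPM in HCC827, A549 and BEAS-2B, with mRNA at the floor in HCC827 and at 14.2 and 7.94 FPKM in the others. In A549 against BEAS-2B the widest gaps were those of RPL8, with 392 against 184 TPM and an mRNA difference of -1.62 on the log2(FPKM + 1) scale, and of the mitochondrial citrate carrier gene SLC25A1, with 12.99 against 5.29 TPM and an mRNA difference of -1.32. In the other direction, the circRNA of ZNF736 had a ratio of 0.0414 with an mRNA difference of -1.62.

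**Figure D5:**
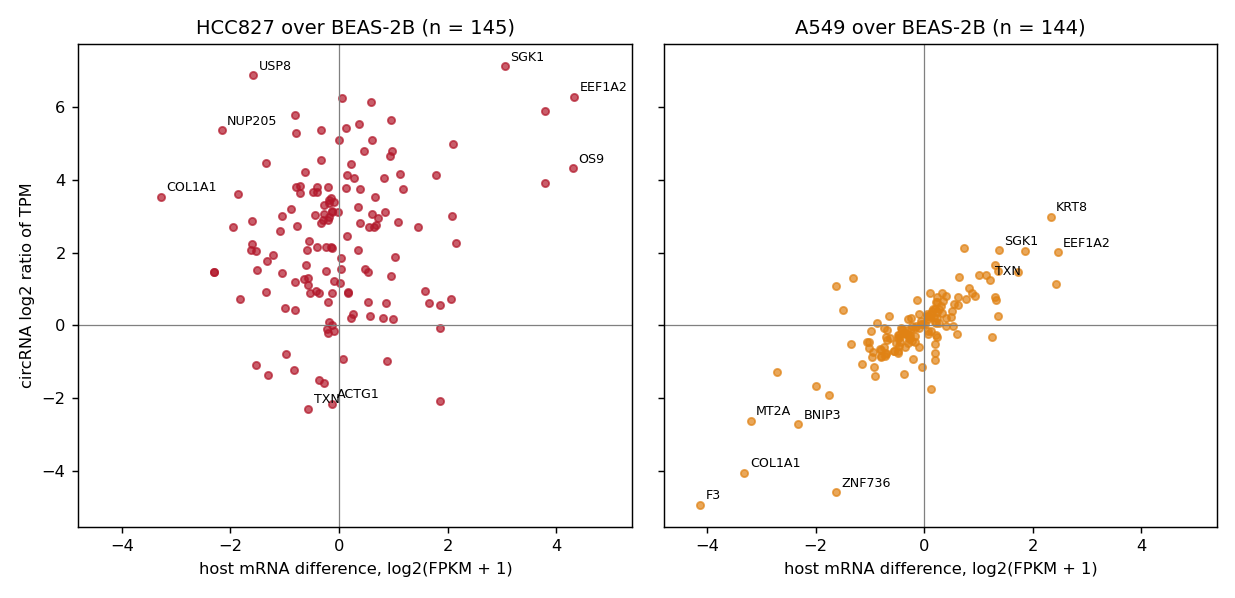
Log2 ratio of TPM of each detected circRNA under 1 kb against the log2(FPKM + 1) difference of its host mRNA, for HCC827 over BEAS-2B (n = 145) and A549 over BEAS-2B (n = 144), with 1 point per circRNA. The A549 points lie along a rising diagonal (rho 0.74) with F3 and COL1A1 at the low end and KRT8 at the high end, and the HCC827 points lie mostly above 0 at every host difference (rho 0.13).

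In several genes the circRNA differed over 5-fold and the host mRNA over 4-fold in the same direction, among them F3, BNIP3, MT2A and KRT8 in A549 against BEAS-2B and OS9, SGK1 and EEF1A2 in HCC827 against BEAS-2B. The promoters of the first 4 and of OS9, the most abundant, are shown, with 1 listed start per gene. Whether the transcripts that give the circRNA and the mRNA begin at that start was not determined. Each line gives 250 bases before and 50 after the start of the gene on its own strand, from RefSeq on GRCh38.p14, another build than that of the circRNA positions. Capitals mark the TATA box letters TATAAA, the CCAAT box letters and the GC box letters GGGCGG on either strand, with no overlaps among the matches.
F3 (chr1:94541710-94542009, minus strand): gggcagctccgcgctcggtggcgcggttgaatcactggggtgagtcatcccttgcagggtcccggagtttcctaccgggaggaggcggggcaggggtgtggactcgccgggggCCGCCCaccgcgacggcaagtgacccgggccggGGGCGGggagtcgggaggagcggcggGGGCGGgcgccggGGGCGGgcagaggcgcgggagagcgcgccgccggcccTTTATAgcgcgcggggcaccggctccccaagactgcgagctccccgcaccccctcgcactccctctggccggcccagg
BNIP3 (chr10:131981874-131982173, minus strand): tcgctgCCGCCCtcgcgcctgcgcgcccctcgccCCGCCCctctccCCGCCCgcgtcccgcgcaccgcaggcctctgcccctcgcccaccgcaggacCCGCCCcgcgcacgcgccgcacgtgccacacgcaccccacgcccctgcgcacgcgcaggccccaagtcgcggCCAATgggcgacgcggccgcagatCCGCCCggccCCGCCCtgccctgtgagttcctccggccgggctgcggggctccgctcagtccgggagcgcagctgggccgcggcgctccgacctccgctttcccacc
MT2A (chr16:56608334-56608633, plus strand): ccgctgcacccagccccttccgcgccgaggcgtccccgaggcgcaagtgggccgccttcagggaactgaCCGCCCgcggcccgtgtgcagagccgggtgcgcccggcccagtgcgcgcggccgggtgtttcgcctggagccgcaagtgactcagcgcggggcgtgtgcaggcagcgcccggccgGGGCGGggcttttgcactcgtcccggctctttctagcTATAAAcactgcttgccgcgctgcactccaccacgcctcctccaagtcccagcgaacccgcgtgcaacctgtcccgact
KRT8 (chr12:52926420-52926719, minus strand): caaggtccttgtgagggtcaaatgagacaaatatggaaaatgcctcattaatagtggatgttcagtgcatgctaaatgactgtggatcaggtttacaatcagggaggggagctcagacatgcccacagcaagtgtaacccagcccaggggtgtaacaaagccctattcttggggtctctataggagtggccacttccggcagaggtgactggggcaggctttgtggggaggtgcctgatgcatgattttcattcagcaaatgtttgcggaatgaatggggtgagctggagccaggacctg
OS9 (chr12:57693882-57694181, plus strand): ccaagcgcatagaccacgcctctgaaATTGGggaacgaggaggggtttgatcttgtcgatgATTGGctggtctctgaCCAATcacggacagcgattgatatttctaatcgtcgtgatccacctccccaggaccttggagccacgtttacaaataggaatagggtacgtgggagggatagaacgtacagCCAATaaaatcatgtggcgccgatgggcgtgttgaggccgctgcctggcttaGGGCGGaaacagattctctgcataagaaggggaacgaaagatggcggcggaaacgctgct
TATAAA is in 11.5%, CCAAT in 34.6% and GGGCGG in 44.95% of 35116 such promoters. The promoters of F3 and MT2A each hold TATAAA 1 time, and GGGCGG 4 times in F3 and 2 times in MT2A. That of BNIP3 holds CCAAT 1 time and GGGCGG 6 times at a GC content of 80.7%, that of OS9 holds CCAAT 4 times and GGGCGG 1 time, and that of KRT8 holds none of these letters in this window. These matches describe the sequence and were not tested against the levels.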

How the data were processed

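CircRNA values were used in TPM as deposited by the authors, with identifiers, positions and hosts, and mRNA values in FPKM as deposited by the authors. The program behind the TPM is not given in the sources used here. The submitters' notes list the genome build hg19, FastQC 0.11.7, kallisto and sleuth, while the study's methods, which describe FPKM only, give a mouse genome build, GENCODE 21, STAR 2.5.3a and Cufflinks 2.2.1. The extraction kit also differs between methods and sample descriptions. The deposited fold changes between lines and lists of predicted miRNA targets were not used, and 0 columns of other samples were present.

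The members and gene lists were chosen with earlier results of these data known. Tables were read with Python 3.11.15 and pandas 2.3.3, and correlations used scipy 1.17.1. Of 20635 mRNA names, 117 with a repeat and 28 read as numbers (these sets overlap) were dropped, which left 20494. Hosts were matched by symbol or, for 340 members, by accession. No genome of the table's build was used, so circRNA sequences are not shown. Ratios were taken of TPM without a pseudocount, host differences on log2(FPKM + 1), and the code was tested on simulated data. Depth in reads is not given, and TPM and FPKM keep no counts. The common step of TPM values was searched after the values were seen, at spans of 80 to 200 bases with at least 8 values above 1 TPM in a line, as the value of which most TPM were whole multiples within 0.02. It was kept in 19 of 79 spans in A549 and 26 of 74 in BEAS-2B, where at least 70% of values were whole, and on simulated data the search at times returned a fraction of the true step.

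Named members were the 10 highest by mean TPM, the 5 at each end of each ratio, the 5 highest at 0 in HCC827 or in BEAS-2B, those at the limit of the class, up to 3 detected per gene list, the 3 hosts with most members, and up to 3 per direction over 4-fold apart from their host. Those of the wider A549 comparison, the histone and glycolysis members at 0, GAPDH, EEF1A1, and the members of the step search were added after their values were seen. Alternatives were detection at 1 or 10 TPM or in the pair only, an added pseudocount, size factors, 1 member per host, spans under 500 bases, leaving out shared values and a fold of 2, and, added after seeing the data, sums per host.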

Additional observations from a re-analysis of the deposited data

Results flagged for a closer look

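The circRNAs of ZNF736 and COL1A1 moved in opposite directions past 5-fold in the cancer lines, each set against the same BEAS-2B library. The circRNA of ZNF736 (hsa_circ_0008543) had 1074 TPM in HCC827 and 5.73 TPM in A549, against 138 TPM in BEAS-2B, which is a ratio of 7.76 in HCC827 and 0.0414 in A549. That of COL1A1 (hsa_circ_0044569) had 2112 TPM in HCC827 and 10.95 TPM in A549, against 182 TPM in BEAS-2B, a ratio of 11.6 in HCC827 and 0.0603 in A549, while the COL1A1 mRNA was at 5.32, 5.21 and 60.6 FPKM and thus low in both cancer lines. With size factors the HCC827 ratios were 2.75 for ZNF736 and 4.12 for COL1A1. The difference between the lines was not tested, since each has 1 library.

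Signal was present for 119 members in HCC827 that were listed at 0 in A549 and in BEAS-2B. All 10 members under 20 TPM in HCC827 were among them, and 88 of the 311 members above 0 in HCC827 exceeded 1000 TPM.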

How the results depend on the processing

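Of 99 values recomputed, 74 stayed within the spread allowed, 24 moved and 1 changed sign. No paired analysis was possible because each line has 1 library. With median-of-ratios scaling (factors 2.07 for HCC827, 0.665 for A549 and 0.734 for BEAS-2B), the members over 5-fold changed fell in number to 42 in HCC827 against BEAS-2B (32 higher, 10 lower) and 46 in HCC827 against A549 (35 higher, 11 lower), their median log2 ratios to 1.20 and 0.97, and the median of A549 against BEAS-2B changed sign to 0.075. With spans under 500 bases the counts were 38, 40 and, for A549 against BEAS-2B, 2, which holds fewer members by construction, and the members' share of TPM was 13.9% in HCC827 and 16.9% in A549. For A549 against BEAS-2B the count was 83 with detection in the pair only, 10 above 1 TPM in each line and 30 at a fold of 2, and rho with the host was 0.61 in the pair. With 1 member per host the shares above 0 were 3.95% in HCC827, 46.3% in A549 and 45.4% in BEAS-2B. Above 1, 5 and 10 TPM the shares were 24.3%, 18.2% and 14.4% in A549 and 24.1%, 18.4% and 14.6% in BEAS-2B, and the median above 5 TPM was 24.2 and 26.5 TPM. The cause of the remaining shifts was not tested. Depth in reads is not given for any line. At 95 bases the TPM step was 1274 TPM in HCC827, 2.34 TPM in A549 and 2.18 TPM in BEAS-2B.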

Other observations

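Summed over the members of each host, 283 of 6881 hosts (4.11%) were above 0 in HCC827, 3236 (47.0%) in A549 and 3179 (46.2%) in BEAS-2B. Of 169 hosts whose members summed to over 5 TPM in each line, 80 were over 5-fold higher and 1 over 5-fold lower in HCC827 than in BEAS-2B, with a median log2 ratio of 2.16. With coding-host circRNAs of every span summed, 472 of 2641 hosts were higher and 171 lower, with a median log2 ratio of 0.64. Most hosts had few members, with 3358 of them having 1. Exactly the same values in all lines as another circRNA of the table were found for 77 members, 2 of them detected. Of the 311 HCC827 values above 0, 289 were distinct, and 22 values each occurred 2 times.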
